A study of Rattus norvegicus with 6 samples.

Results

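The RGS genes encode regulators of G protein signaling, and 10 of them were chosen by symbol (Rgs2, Rgs3, Rgs4, Rgs5, Rgs7, Rgs10, Rgs12, Rgs14, Rgs16 and Rgs19). The symbol rule uses no measured value, but the genes were chosen with earlier results of these data known. Comparisons of these genes with all genes are therefore descriptions. Of these 10 symbols, 9 were matched to a row among the 14475 genes of the count table, and Rgs5 was not analysed here. The libraries came from vascular smooth muscle (VSM) cells grown in culture from the soleus feed artery (SFA), the vessel that supplies the soleus muscle, of male Fischer 344 rats. Untreated cultures of young rats (4 months) were compared with those of old rats (24 months), with 3 libraries in each group and no transgene or drug in either. Cells were grown in serum before RNA extraction, so the levels describe cultured cells and not the intact artery, and the passage number is not given in the sources used here. Total counts on genes ranged from 44235674 to 59700887 per library, and levels are given in CPM, the count of a gene scaled to a fixed library total, after TMM scaling of the library sizes.

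A G protein coupled receptor switches on its G protein by loading the alpha subunit with GTP, and an RGS protein switches it off again by speeding up GTP hydrolysis through its RGS domain. In VSM cells, vasoconstrictor receptors signal mainly through the Gq and Gi classes of alpha subunit, on which most RGS proteins act. RGS2 is best known in the vessel wall as a brake on Gq signals that is switched on by cGMP-dependent protein kinase, and RGS4, RGS5 and RGS16 are short-lived proteins removed by the N-degron pathway.

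Of the 9 RGS genes, 8 had a lower fitted level in old VSM cells and 1, Rgs10, had a higher level, compared with 48.0% of all genes with a log2 fold change below 0. In edgeR's quasi-likelihood test, with Benjamini-Hochberg adjustment over all genes, 0 of the 9 passed both thresholds of the study (adjusted p under 0.05, and a log2 fold change of 1 or more in size), as did 0.00691% of all genes. Without adjustment, 7 of the 9 had a p under 0.05 in edgeR, compared with 22.6% of all genes. The DESeq2 Wald test, which is the test of the study, called 2 of the 9, Rgs4 and Rgs16, both downregulated in old VSM cells, where it called 5.68% of all genes and 3.38% as downregulated. With 1 library left out DESeq2 called 0 RGS genes without young replicate 2, 1 without young replicate 1 or old replicate 3 and 3 (Rgs7, Rgs14 and Rgs16) without old replicate 1. No share over all genes is given for these fits, so the counts are not read as particular to the RGS genes. In edgeR the calls over all genes rose from 1 to 732 without old replicate 1. limma-voom called 0 of the 9 and had 5 at an unadjusted p under 0.05, compared with 23.1% of all genes. The age groups did not overlap for 7 of the 9 genes, compared with 29.2% of all genes and 31.2% of genes with a mean of at least 1 CPM. For 6 of the 9 all old libraries were below all young ones, compared with 14.7% of all genes. The median log2 fold change of the 9 genes was -1.33, against 0.02 over all genes. With 3 libraries in each group, the smallest p of an exact two-sided permutation test is 0.10, so single genes were tested only in the fits across all genes.

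**Figure D1:**
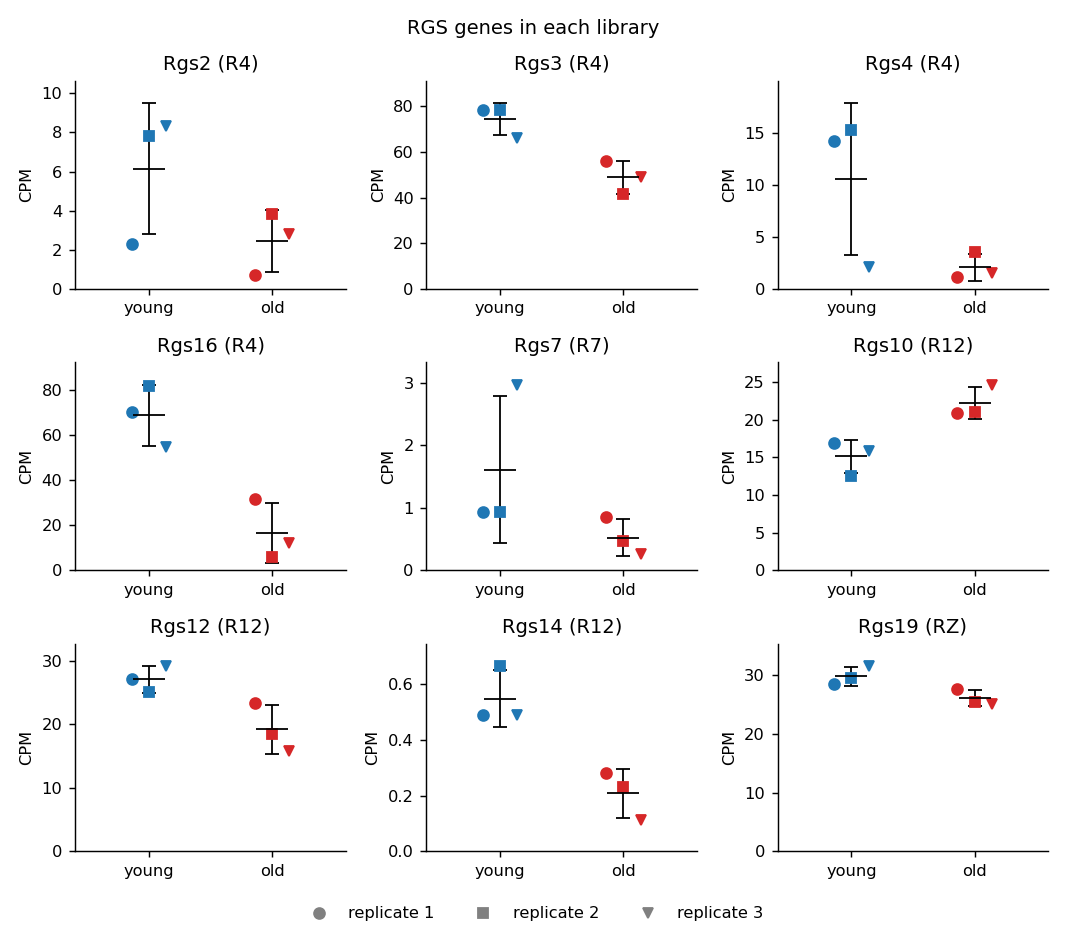
Level of each RGS gene in CPM (vertical axes start at 0) in the 3 young (blue) and 3 old (red) libraries, with the mean (horizontal line) and SD (bars). The old libraries of Rgs16 sit at 31.4 CPM and below and the young ones at 54.6 CPM and above, whereas Rgs10 is the gene with all old libraries on top.

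The R4 group holds small RGS proteins with little beyond the RGS domain, and 4 of the 9 genes belong to it. Rgs16 (ENSRNOG00000027024), whose product acts on Gi and Gq alpha subunits, had 70.0, 81.7 and 54.6 CPM in young replicates 1, 2 and 3 and 31.4, 5.93 and 12.3 CPM in old replicates 1, 2 and 3. The groups did not overlap, and old replicate 1 stood closest to the young libraries. Mean levels were 68.8 ± 13.6 CPM for young and 16.5 ± 13.3 CPM for old cultures (SD, n = 3 each); the log2 difference of -2.06 (standard error 0.58) is a 4.16-fold lower level. The adjusted p was 0.129 in edgeR's quasi-likelihood test and 0.00318 in the DESeq2 Wald test. Leaving out old replicate 1 moved the log2 fold change to -2.92, with adjusted p = 0.0283 in edgeR, the only library whose removal brought an RGS gene past both thresholds there. In DESeq2 Rgs16 passed with 5 of the 6 libraries left out in turn and did not pass without young replicate 2 (adjusted p = 0.0618).

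Rgs4 (ENSRNOG00000002773), another regulator of Gi and Gq, was at 14.2, 15.3 and 2.12 CPM in young and at 1.17, 3.58 and 1.49 CPM in old libraries. Young replicate 3 lay within the range of the old libraries, so the groups overlapped. The fitted difference was -2.34 ± 0.80 in log2 (SE, with adjusted p = 0.170 in edgeR, 0.0149 in DESeq2), the largest in size of the 9 genes. With 1 library left out it ranged from -2.98 to -1.96 in edgeR. The DESeq2 call of Rgs4 held only without young replicate 3 (adjusted p = 8.92e-06) or old replicate 2 (adjusted p = 0.00433), and with any other library left out its adjusted p lay between 0.0530 and 0.168.

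Rgs3 (ENSRNOG00000024501) showed a smaller and tighter difference. It encodes an R4 protein with several longer isoforms, and gene counts do not separate these. Its levels were 78.1, 78.5 and 66.3 CPM in young and 55.9, 41.5 and 49.1 CPM in old, with no overlap between the groups. The log2 fold change of -0.61 (standard error 0.14) was below the fold threshold, with an adjusted p of 0.0967 in edgeR, the lowest of the 9 genes, and of 0.00513 in DESeq2. Rgs2 (ENSRNOG00000003687), the Gq-selective regulator, had 2.30, 7.80 and 8.35 CPM in young and 0.683, 3.81 and 2.82 CPM in old, and the groups overlapped because young replicate 1 was lower than 2 of the old libraries. Its log2 fold change of -1.33 had a standard error of 0.71 (adjusted p = 0.306 in edgeR and 0.190 in DESeq2), so the difference was within the spread between libraries.

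The genes outside R4 differed less or had few reads. Rgs7 (ENSRNOG00000021984) encodes the R7 regulator that works as a dimer with the G protein subunit Gβ5. It had 42, 56 and 146 counts in young and 42, 24 and 14 counts in old libraries, which is 0.930, 0.931 and 2.97 CPM against 0.844, 0.462 and 0.261 CPM. Its groups did not overlap in CPM, but young replicate 1 and old replicate 1 had the same 42 counts, with a 95% Poisson interval from 30.3 to 56.8 counts. The log2 fold change was -1.62 ± 0.65 (SE, with adjusted p = 0.212 in edgeR) and -0.83 without young replicate 3. Transcripts of its partners had overlapping groups, with log2 fold changes of 0.16 (standard error 0.18) for Gnb5 and -0.79 (standard error 0.49) for the membrane anchor Rgs7bp, at adjusted p of 0.608 and 0.369 in edgeR.

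The R12 group had differences of both signs. Rgs10 (ENSRNOG00000042592) encodes a small regulator of Gi alpha subunits, and it had 16.9, 12.6 and 15.9 CPM in young and 21.0, 21.0 and 24.7 CPM in old, all old libraries above all young ones. The fitted difference was 0.56 ± 0.15 in log2 (SE, with adjusted p = 0.116 in edgeR, 0.0225 in DESeq2), which is below the fold threshold. Rgs12 (ENSRNOG00000030568) and Rgs14 (ENSRNOG00000015616) encode large scaffolds with Ras-binding domains and a GoLoco motif that holds Gi in its GDP form. Rgs12 had 27.0, 25.0 and 29.1 CPM in young and 23.3, 18.4 and 15.8 CPM in old, with -0.50 ± 0.16 on the log2 scale (SE, with adjusted p = 0.159 in edgeR, 0.0710 in DESeq2). Rgs14 was near the lower end of detection, with 22, 40 and 24 counts in young and 14, 12 and 6 counts in old libraries and a fitted difference of -1.39 ± 0.43 in log2 (SE, with adjusted p = 0.145 in edgeR, 0.0884 in DESeq2). The groups did not overlap for either gene, and the 6 counts of Rgs14 in old replicate 3 have a 95% Poisson interval from 2.20 to 13.1 counts. Such intervals cover counting error only. Of the counts from 1 to 19, 68.7% to 71.1% per library were even. The sequencing depth stated in the paper is below the total counts on genes of every library, so counts outnumbered the sequenced fragments. The intervals given are therefore likely too narrow. Whether both mates of each read pair were counted was not tested. With all counts halved, the adjusted p in edgeR was 0.208 for Rgs7 and 0.136 for Rgs14.

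Rgs19 (ENSRNOG00000016547), the RZ regulator of Gi also known as GAIP, differed least. It had 28.5, 29.5 and 31.6 CPM in young and 27.7, 25.5 and 25.2 CPM in old, and its log2 fold change of -0.19 ± 0.09 (SE, with adjusted p = 0.254 in edgeR) was smaller in size than that of 60.7% of all genes. Its groups did not overlap, and the closest libraries were young replicate 1 and old replicate 1.

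**Figure D2:**
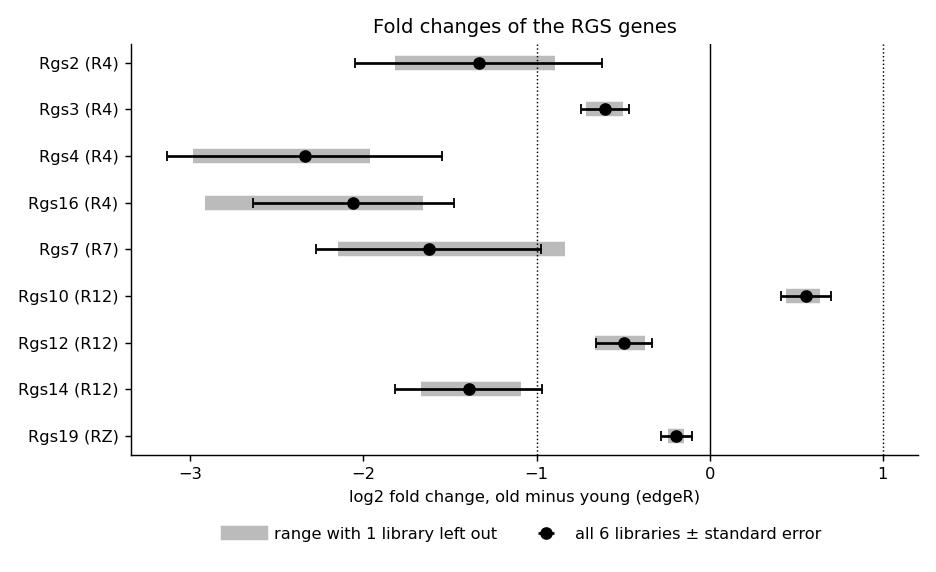
Log2 fold change of each RGS gene, old minus young, with its standard error (black) and the range with 1 library left out in turn (grey); dotted lines mark the fold threshold. No range reaches 0, and the ranges of Rgs4, Rgs16 and Rgs14 stay beyond -1 while that of Rgs3 lies between -0.71 and -0.50.

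Summed over the 9 genes, RGS transcripts took 238, 252 and 211 CPM in young and 162, 120 and 132 CPM in old libraries, with no overlap between the groups. Within that sum the share of Rgs16 was 29.4%, 32.4% and 25.8% in young and 19.3%, 4.92% and 9.30% in old libraries. The share of Rgs10 was 7.08%, 5.00% and 7.53% in young and 12.9%, 17.5% and 18.8% in old. A share depends on the sum, which was lower in old, and the level of Rgs10 itself was 1.47-fold higher in old. Longer transcripts give more counts, so these shares compare libraries and not the abundance of 1 RGS transcript with another. The same 6 libraries gave 36 correlations between pairs of RGS genes in log2 CPM, with 28 above 0, a median Pearson r of 0.47 and the highest value for Rgs3 with Rgs16 (r = 0.98). All 8 correlations below 0 involved Rgs10. These are descriptions over 6 libraries that share the age groups. For Rgs4, the gene with the largest fold change, the genes of most similar pattern were Nhlrc2 (r = 0.99) and Kank3 (r = 0.99), but 110 of 11428 genes had an r above 0.9. The log2 fold changes of Nhlrc2 (-0.17) and Kank3 (-0.77) were smaller in size than that of Rgs4, and both had overlapping groups.

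For the 4 genes with an adjusted p under 0.05 in DESeq2 (Rgs3, Rgs4, Rgs10 and Rgs16, where 12.5% of all genes had one), the 250 bases before the RefSeq start site are shown to compare the promoters of 3 genes that were lower and 1 that was higher in old VSM cells. They are from the RefSeq promoter table of build GRCr8, which differs from the build that the paper states for the counts. They run 5′ to 3′ on the strand of the gene, at chr13:68437870-68438119 (plus) for Rgs16, chr13:84475885-84476134 (minus) for Rgs4, chr5:81093801-81094050 (plus) for Rgs3 and chr1:192418078-192418327 (minus) for Rgs10. Capitals mark matches on either strand to the GC box GGGCGG, the TATA box TATAAA, the core of the cAMP response element TGACG, the MCAT element GGAATG and the CArG box of serum response factor. No capitals overlap.
Rgs16: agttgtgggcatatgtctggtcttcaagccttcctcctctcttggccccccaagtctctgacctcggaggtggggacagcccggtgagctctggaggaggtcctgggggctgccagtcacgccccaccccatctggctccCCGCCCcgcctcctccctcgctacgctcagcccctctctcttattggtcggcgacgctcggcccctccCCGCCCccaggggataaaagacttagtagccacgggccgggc
Rgs4: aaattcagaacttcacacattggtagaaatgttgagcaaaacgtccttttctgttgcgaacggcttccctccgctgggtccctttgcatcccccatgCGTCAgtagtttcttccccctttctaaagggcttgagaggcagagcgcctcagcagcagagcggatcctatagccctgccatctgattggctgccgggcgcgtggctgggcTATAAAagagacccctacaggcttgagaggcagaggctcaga
Rgs3: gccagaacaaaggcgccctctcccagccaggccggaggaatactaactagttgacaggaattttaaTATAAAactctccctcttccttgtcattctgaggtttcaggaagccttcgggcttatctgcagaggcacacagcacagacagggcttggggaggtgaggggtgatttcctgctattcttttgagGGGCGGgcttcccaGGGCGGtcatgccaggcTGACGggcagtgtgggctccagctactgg
Rgs10: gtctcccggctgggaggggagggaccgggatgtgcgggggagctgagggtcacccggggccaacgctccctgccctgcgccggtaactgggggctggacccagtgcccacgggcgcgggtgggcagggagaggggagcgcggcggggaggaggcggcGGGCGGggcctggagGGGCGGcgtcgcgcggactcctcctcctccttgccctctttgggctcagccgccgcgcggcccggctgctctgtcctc
A GC box was found in 6 of the 9 promoters, Rgs3, Rgs10 and Rgs16 among them, and in 43.3% of 17316 rat promoters of the same length. TATAAA stood in those of Rgs3 and Rgs4 and in 11.8% of all promoters, in Rgs4 beginning 42 bases before the start. The TGACG core was in Rgs2, Rgs3 and Rgs4 and in 22% of all promoters. Neither the CArG box (1.28% of all promoters) nor GGAATG (10.8%) had a match in any of the 9. Base composition differed among the 4, with 77.6% G or C in Rgs10, 66.8% in Rgs16, 55.6% in Rgs3 and 54.4% in Rgs4, against a median of 56.0% over all promoters. A match describes letters in the window and no binding was measured. On the same RefSeq assembly Rgs2, Rgs4, Rgs7 and Rgs16 are all on chromosome 13, where Rgs16 neighbors Rgs8. The R4 gene Rgs8 had 2.00 ± 0.657 CPM in young and 1.67 ± 0.787 CPM in old (SD, n = 3 each), and its groups overlapped, unlike those of Rgs16.

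The RGS genes beyond the 9 and the proteins around them were taken from lists of the G protein pathway. Over 99 genes in 8 lists, edgeR called 0 and had 23 at an unadjusted p under 0.05 (22.6% of all genes), limma-voom called 0 and had 25 (23.1% of all genes), and DESeq2 called 16 (5.68% of all genes), of which 9 were downregulated and 7 upregulated. The median log2 fold change of the 99 was -0.03, and 27 had groups that did not overlap (29.2% of all genes), so apart from the DESeq2 calls these counts lay near the shares over all genes. Without old replicate 1 edgeR called 7 of the 99, and 732 of all 14475 genes. DESeq2 called 7 of the 99 without young replicate 3 and 10 without old replicate 2, with no share over all genes given for these fits. Among 5 other RGS genes, DESeq2 called 1, Rgs17, a Gi regulator of the RZ group that was chosen after its values were seen. Rgs17 had 1.46, 1.25 and 1.53 CPM in young and 0.523, 0.308 and 0.0746 CPM in old, with -2.22 ± 0.61 on the log2 scale (SE, with adjusted p = 0.124 in edgeR, 0.00999 in DESeq2). The groups of the remaining ones, Rgs8, Rgs11, Rgs20 and Rgs22, overlapped.

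DESeq2 called 5.68% of all genes, and the calls in each list below are read against that share. Of 13 other genes with an RGS domain, 1 was called by DESeq2. It was Grk5, a kinase that phosphorylates active receptors, with 76.2, 99.2 and 48.0 CPM in young and 34.5, 32.0 and 18.9 CPM in old (log2 fold change -1.39, standard error 0.33, adjusted p = 0.102 in edgeR, 0.00139 in DESeq2). Grk2, the related kinase, was lower by less, at 50.5 ± 1.46 against 37.5 ± 2.35 CPM (SD, n = 3 each, adjusted p = 0.0762 in edgeR, 0.000842 in DESeq2). The endosomal gene Snx13 was slightly higher in old cultures (0.22 on the log2 scale), and its groups were separate. The alpha subunits on which RGS proteins act had log2 fold changes from -0.25 to 2.27 over 11 rows (2 of them with the symbol Gnas), with 1 call in DESeq2. The call was Gna14, a Gq class subunit, at 2.79, 0.465 and 0.326 CPM in young and 4.38, 5.50 and 7.33 CPM in old (adjusted p = 0.181 in edgeR, 0.0310 in DESeq2). Gnaq had 63.1 ± 12.9 and 60.5 ± 9.71 CPM (SD, n = 3 each) and Gnai2 598 ± 44.6 and 550 ± 37.6 CPM (SD, n = 3 each) in young and old, and both overlapped. Gna12 and Gna13 had separate groups, with log2 fold changes of -0.20 and 0.37 that did not pass in either test. Of 12 beta and gamma subunits DESeq2 called Gng2, at -1.07 ± 0.35 on the log2 scale (SE, with adjusted p = 0.161 in edgeR, 0.0360 in DESeq2). Of 8 modulators it called 0, and Gipc1, whose product binds RGS19, was the gene of that list with separate groups (log2 fold change -0.18, adjusted p = 0.265 in edgeR).

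**Figure D3:**
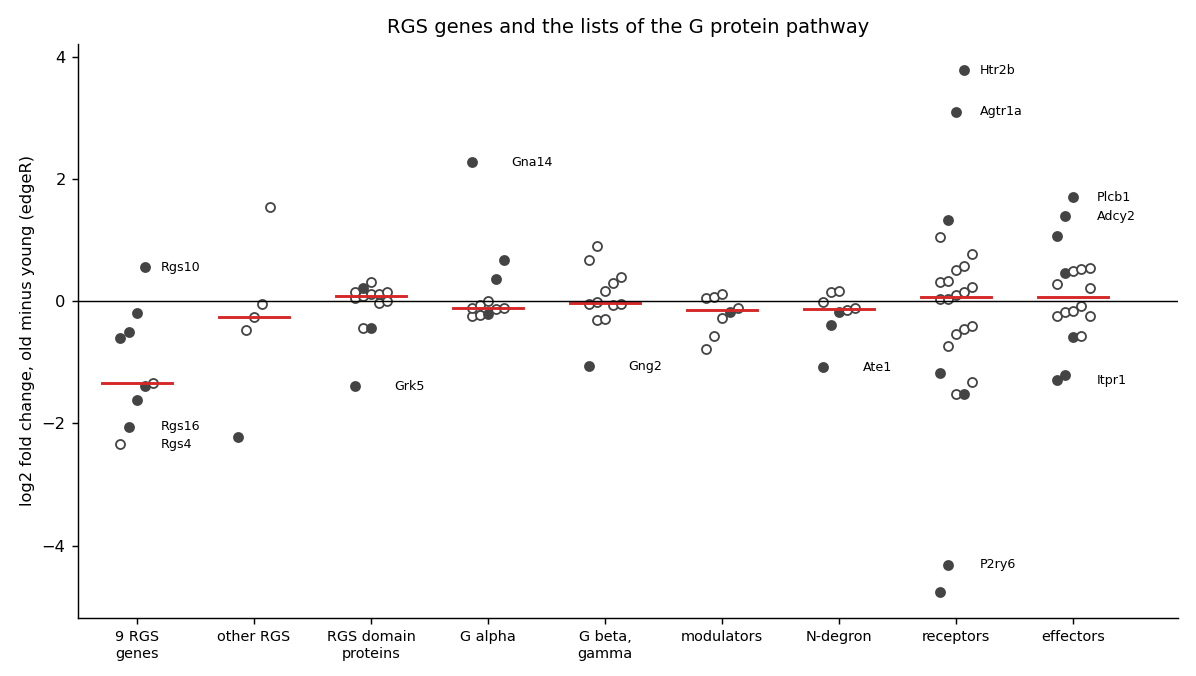
Log2 fold change, old minus young, of the 9 RGS genes and of each gene in 8 lists of the G protein pathway; filled points have groups that do not overlap, open points have groups that do, and red lines are medians. The median is -1.33 for the 9 RGS genes and lies between -0.26 and 0.08 for the other lists.

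The N-degron enzymes that can remove RGS4, RGS5 and RGS16 were measured as 8 genes. Ate1, the arginyltransferase of this pathway, had 192, 206 and 314 CPM in young and 145, 86.9 and 106 CPM in old, with -1.08 ± 0.26 on the log2 scale (SE, with adjusted p = 0.105 in edgeR) that DESeq2 called (adjusted p = 0.00350). The ubiquitin ligase Ubr1 was at 185 ± 6.24 and 141 ± 17.2 CPM (SD, n = 3 each, adjusted p = 0.136 in edgeR, 0.0365 in DESeq2), and the cysteine dioxygenase Ado had separate groups with -0.17 on the log2 scale (adjusted p = 0.358 in edgeR). The other 5 genes had overlapping groups, so 3 of the 8 were separate, compared with 29.2% of all genes.

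Receptors and effectors differed in both directions. Of 24 receptor genes, DESeq2 called 3 downregulated and 3 upregulated, compared with 3.38% and 2.30% of all genes. The groups overlapped for 17 of the 24 and were separate for 7, where 29.2% of all genes had separate groups. Agtr1a, the angiotensin II type 1a receptor, had 3.14 ± 1.34 CPM in young and 26.9 ± 16.1 CPM in old (SD, n = 3 each, log2 fold change 3.10, standard error 0.58, adjusted p = 0.0697 in edgeR, 6.53e-07 in DESeq2). Htr2b, a serotonin receptor, had 0.936 ± 0.226 CPM in young and 13.0 ± 9.28 CPM in old (SD, n = 3 each, adjusted p = 0.0648 in edgeR, 7.13e-08 in DESeq2). P2ry6, a receptor for UDP, was at 2.35 ± 2.50 CPM in young and 0.116 ± 0.0664 CPM in old (SD, n = 3 each, adjusted p = 0.111 in edgeR, 0.000366 in DESeq2). It had few reads, with 14, 96 and 252 counts in young and 4, 10 and 4 counts in old libraries. All 3 receptors couple to Gq, and their groups did not overlap. F2r, another receptor with separate groups, had 574 ± 99.9 CPM in young and 255 ± 27.4 CPM in old (SD, n = 3 each). Its adjusted p was 0.0545 in edgeR, the lowest of the 24, and 4.01e-08 in DESeq2. Summed over the 24 genes, levels were 978 to 1165 CPM in young and 792 to 910 CPM in old, with F2r the largest part. Among 18 effectors DESeq2 called 2 downregulated and 3 upregulated. Plcb1, a phospholipase driven by Gq, had 4.85, 1.93 and 4.25 CPM in young and 11.1, 11.8 and 13.0 CPM in old (adjusted p = 0.0762 in edgeR, 0.000121 in DESeq2). Plcb4 and Plcb3, of the same family, had separate groups and were lower in old. Plcb4 was at 120 ± 61.2 against 52.2 ± 7.85 CPM (SD, n = 3 each, adjusted p = 0.137 in edgeR, 0.0141 in DESeq2). Plcb3 was at 100 ± 10.5 against 66.9 ± 7.77 CPM (SD, n = 3 each, adjusted p = 0.0894 in edgeR, 0.00276 in DESeq2), and the groups of Plcb2 overlapped. Adcy2, an adenylyl cyclase, had a log2 fold change of 1.39 (adjusted p = 0.118 in edgeR, 0.00635 in DESeq2), and Itpr1, an inositol trisphosphate receptor, of -1.30 (adjusted p = 0.161 in edgeR, 0.0225 in DESeq2). Itpr3 and Itpr2, of the same family as Itpr1, had separate groups and were higher in old. Their log2 fold changes were 1.06 and 0.46 (adjusted p = 0.0531 and 0.175 in edgeR, 2.10e-09 and 0.101 in DESeq2).

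Marker genes of other cell states differed between the same libraries. All 8 smooth muscle markers had separate groups and were lower in old, with a summed level of 11209 to 20997 CPM in young and 3447 to 5562 CPM in old. All 8 fibroblast markers had a positive log2 fold change, 4 with separate groups, and their sum was 262 to 731 CPM in young and 1190 to 2163 CPM in old. Over all genes, 14.7% had separate groups and were lower in old, and 14.5% had separate groups and were higher. The 6 proliferation markers summed to 365 to 552 CPM in young and 119 to 395 CPM in old, and old replicate 1, which had the most Rgs16 of the old libraries, was also the highest of them in this sum. Of 10 mural and pericyte markers, 8 were matched, and their sums overlapped at 985 to 1546 and 834 to 1718 CPM. Of these 8, 4 had a negative and 4 a positive log2 fold change, and DESeq2 called 2 lower (Cspg4 and Mcam) and 3 higher (Anpep, Cox4i2 and Ndufa4l2). Over all genes DESeq2 called 3.38% lower and 2.30% higher. The endothelial markers Pecam1, Vwf, Kdr and Tek summed to 4.01 to 13.6 CPM in young and 12.7 to 18.2 CPM in old, and the macrophage markers Cd68 and Csf1r to at most 2.90 CPM in any library. Most of the endothelial sum was Tek, at 8.30 ± 5.08 CPM in young and 14.2 ± 2.77 CPM in old (SD, n = 3 each). All 4 endothelial markers had overlapping groups, and the log2 fold change of Kdr was negative (-0.62). Of 11 skeletal muscle markers 4 were matched (Actn3, Myh1, Myh2 and Tnnt3), with sums of 102 to 202 CPM in young and 18.8 to 61.0 CPM in old. Most of that sum in young was Myh1 and Myh2, whereas Tnnt3 was at 10.7 ± 2.61 CPM in young and 20.2 ± 8.99 CPM in old (SD, n = 3 each). The part of these markers in the RGS differences was not tested, and in bulk RNA fewer cells of a type and less RNA per cell cannot be told apart.

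**Figure D4:**
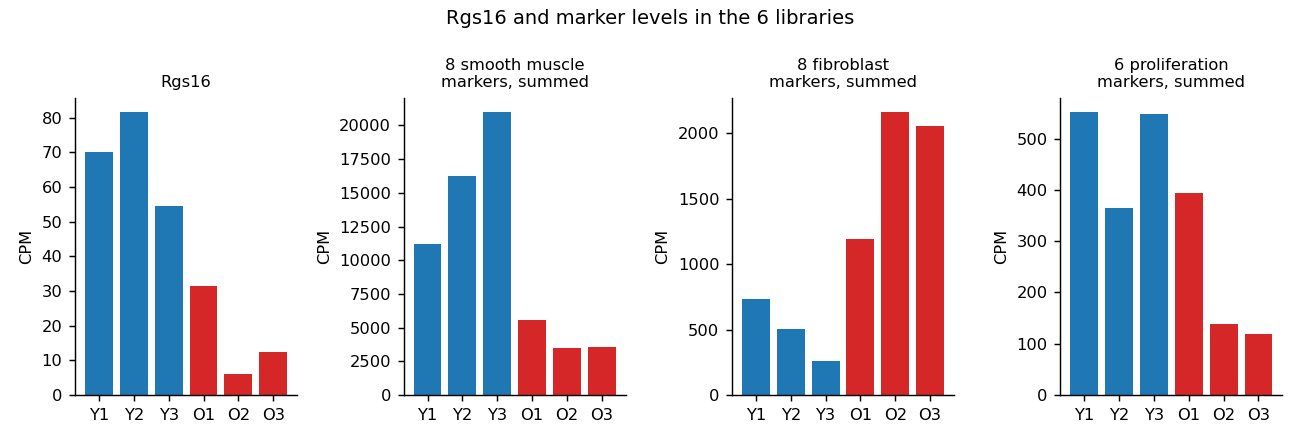
Level in CPM (bars from 0) of Rgs16 and of the summed smooth muscle, fibroblast and proliferation markers in young (blue, Y1 to Y3) and old (red, O1 to O3) libraries. Old replicate 1 is the highest old library for Rgs16 (31.4 CPM), for smooth muscle markers (5562 CPM) and for proliferation markers (395 CPM), and the lowest for fibroblast markers (1190 CPM).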

How the data were processed

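Polyadenylated RNA of 6 VSM cell cultures, 3 young and 3 old, was sequenced as stranded paired-end libraries. The authors deposited raw gene counts, whole numbers without normalization, after trimming (Cutadapt 3.5, Trim Galore 0.6.7), alignment with STAR 2.7.10b to the R. norvegicus v6.0 genome and counting with featureCounts of Subread 2.0.8. How featureCounts treated strand, mates and multi-mapped reads is not given in the sources, so a gene that shares sequence with a copy or an antisense neighbor is uncertain. The paper names a RefSeq annotation for counting, whereas the rows carry Ensembl identifiers, so the annotation behind the counts is uncertain. All 14475 genes were kept, and rows were matched by gene symbol. The main test on the counts was that of edgeR 4.0.16 in R 4.3.3 (scaling by TMM, quasi-likelihood F test, design of age alone with young as reference); the others were DESeq2 1.42.0 (Wald test, filtering set to the 0.05 threshold, 14183 genes with an adjusted p) and limma-voom (limma 3.58.1). p-values were adjusted over all genes tested. The standard error of an edgeR fold change is its size divided by the square root of F. Replicates are cultures of 3 rats per group, as the study states.

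The RGS genes, pathway lists and markers were chosen with earlier results of these data known. Genes named from the lists are up to 3 per list with the largest fold change among those with a mean of at least 1 CPM and groups that do not overlap. Gnaq, Gnai2, Gnb5, Rgs7bp, F2r, Plcb2, Plcb3, Plcb4, Itpr2, Itpr3, the other RGS genes and the marker genes called by DESeq2 are named outside this rule, with their values seen. Alternatives were RLE size factors, library size only, 2 filters on low counts, halved counts, a replicate block, other thresholds and the removal of each library in turn. The edgeR, DESeq2 and limma-voom fits were tested on simulated counts. Promoters were read in Python 3.11.15 from a RefSeq table and matched for 9 of 9 genes. Protein sequences were not used here.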

Additional observations from a re-analysis of the deposited data

How the results depend on the processing

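The log2 fold changes of the 9 RGS genes kept their sign in 134 of 134 recomputed values, of which 129 kept the joint call of both thresholds and 5 moved past both (Rgs4 and Rgs16 in DESeq2 under either filtering, and Rgs16 in edgeR without old replicate 1). Among the 129, single thresholds were crossed in fold by Rgs2 without old replicate 1 (-0.89) and Rgs7 without young replicate 3 (-0.83), and in adjusted p by Rgs3 and Rgs10 in DESeq2 under either filtering and by Rgs3 (0.0377) and Rgs12 (0.0389) in edgeR without old replicate 1. Rgs14 was not tested with a minimum mean of 1 CPM. RGS genes past both thresholds numbered 0 in edgeR and under RLE size factors, library size only, both filters on low counts, halved counts, limma-voom, the replicate block and both other thresholds, 2 in DESeq2 with default settings and 2 with filtering at 0.05 (chosen after seeing the data), and 0 to 1 in edgeR with 1 library left out. Pathway genes numbered 0 in edgeR, 5 at an adjusted p under 0.1, 16 in DESeq2 under either filtering, and 0 to 7 in edgeR with 1 library left out, 7 without old replicate 1. Over all genes edgeR called 1 gene, 732 without old replicate 1 and 0 to 5 without any other library. DESeq2 with 1 library left out, added after seeing the data, called 0 to 3 RGS genes, with 0 without young replicate 2, 1 without young replicate 1 or old replicate 3 and 3 without old replicate 1, and 7 to 17 pathway genes, with 7 without young replicate 3, 10 without old replicate 2 and 17 without old replicate 1. The cause of these changes was not tested, and no share over all genes is given for DESeq2 with 1 library left out. Groups did not overlap for 7 RGS genes under TMM, RLE size factors and library size only, and for 6 of the 8 genes with a minimum mean of 1 CPM. With 1 library left out this held for 7 to 8 genes. Separation is easier with fewer libraries, and no share over all genes is given for that setting. Age groups share replicate numbers, and deviations of same-numbered libraries correlated at 0.06, 0.32 and 0.31. The same-numbered old library was the best match for young replicates 2 and 3, whereas young replicate 1 correlated best with old replicate 2 (0.35). The labels name no pairs, and the numbers were not taken as pairs. The replicate block called 0 RGS genes and 0 pathway genes, with the adjusted p of Rgs2 in edgeR at 0.0993 against 0.306 without the block. Rgs7 and Rgs14 had as few as 14 and 6 counts in a library, and halving all counts left their log2 fold changes at -1.62 and -1.39.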
